A study of Homo sapiens with 3 samples.

Results

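The integrins, laminins and collagens, together with agrin (AGRN), perlecan (HSPG2), nidogen (NID1) and fibronectin (FN1), are the genes by which an epithelial cell makes, and holds on to, the matrix beneath it. They were chosen by name only, as every gene of the deposited tables whose symbol is that of a numbered, V or X integrin chain, a laminin chain or a collagen chain, plus those last 4 genes. The choice gave 81 of 36601 genes, made up of 21 integrins (13 alpha and 8 beta chains), 12 laminins, 44 collagens and the 4 others. Integrin chains whose symbols end in another letter, such as ITGAE and ITGAM, fall outside it.

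Single cell RNA-seq of OVCAR3, an established human line from high-grade serous ovarian carcinoma (HGSOC), was used to ask how blocking RAC1, alone or with EZH2, changes the cells. Cultures were treated for 48 hours with the solvent (DMSO), with 50 μM of the RAC1 inhibitor NSC23766 (RAC1i), or with 50 μM RAC1i and 5 μM of the EZH2 inhibitor GSK126 (Combo). All cultures were the same line in the same medium with serum, which itself supplies matrix proteins, and the cells were lifted from the dish with trypsin before capture. Each condition was 1 library, so no difference below has a replicate check and no p-value is given.

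RAC1 is a small GTPase that is switched on when integrins bind matrix and that drives the spreading edge of the cell, and EZH2 is the methyltransferase that places the repressive H3K27me3 mark. An integrin is a pair of 1 alpha and 1 beta chain that spans the membrane, and the pair sets which matrix protein is bound. A laminin is a trimer of an alpha, a beta and a gamma chain, and laminins, type IV collagen, nidogen, perlecan and agrin build the basement membrane. Serous carcinoma cells are known for using integrins to attach to the laminin, collagen and fibronectin that line the peritoneum.

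The kept cells numbered 7531 (DMSO), 10215 (RAC1i) and 8239 (Combo), with medians of 20989 to 26750 UMIs and 4307 to 5433 genes per cell. Levels are UMIs per 1000000 UMIs of the kept cells of a library (CPM), which rest on 199063947 to 234969742 UMIs, and each interval is an exact 95% interval for counting error only. The kit tags 1 end of each transcript, so a level was not divided by gene length. Where 3 values follow a gene they are those of DMSO, of RAC1i and of Combo, in that order. The median mitochondrial share was 5.6% of UMIs in DMSO against 1.66% in RAC1i and 1.58% in Combo. All 9 markers of serous epithelium were above 1 CPM in every library, and their summed level was 3684, 1926 and 2117 CPM in DMSO, RAC1i and Combo, with 6 of the 9 at least 2-fold lower in both treated libraries. That is 66.7%, against 27.6% (RAC1i) and 25.9% (Combo) of all genes with a mean of at least 1 CPM. PAX8, the transcription factor used to recognise this tumour, was at 355, 54.3 and 47.8 CPM, and the part of these epithelial genes in the results below was not tested. Markers of the other cells that make matrix were near 0, with summed levels of 0.347 to 0.46 CPM for 7 fibroblast genes, 1.24 to 1.92 for 5 endothelial genes, 1.71 to 1.8 for 5 leukocyte genes and 0.754 to 1.45 for 4 smooth muscle genes.

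Of the 81 genes, 43 reached a mean of 1 CPM over the 3 libraries and were compared by ratio, 2 of them above 100 CPM, 17 between 10 and 100 and 24 between 1 and 10. The other 38 were 7 integrins, 3 laminins, 27 collagens and NID1. Together the 81 genes held 1487 CPM in DMSO, 970.4 in RAC1i and 859 in Combo, which is 34.8% lower in RAC1i and 42.3% lower in Combo than in DMSO. With every cell given the same weight the family sums differed less from DMSO. Their RAC1i log2 ratio went from -0.47 to -0.27 for integrins, -0.65 to -0.35 for laminins and -0.81 to -0.40 for collagens. In Combo it went from -0.69 to -0.45, -0.83 to -0.42 and -0.83 to -0.32. The same DMSO library is the base of both comparisons, which are therefore not independent.

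In the RAC1i library, 10 of the 43 genes were at least 2-fold higher than in DMSO (23.3%), where the share over all 13641 genes with a mean of at least 1 CPM was 15.5%. At least 2-fold lower were 14 of the 43 (32.6%), against 27.6% of all genes, and 19 were within 2-fold. In Combo over DMSO, 10 were higher (23.3%, against 14.3% of all genes) and 15 lower (34.9%, against 25.9%). The median log2 ratio of the 43 genes was -0.47 in RAC1i over DMSO and -0.69 in Combo over DMSO, beside -0.26 and -0.23 for all genes tested. With DESeq2 size factors in place of CPM the medians of all genes moved by over 0.1, to -0.14 and -0.11, so each log2 ratio to DMSO below would be about that much higher on that scale.

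**Figure D1:**
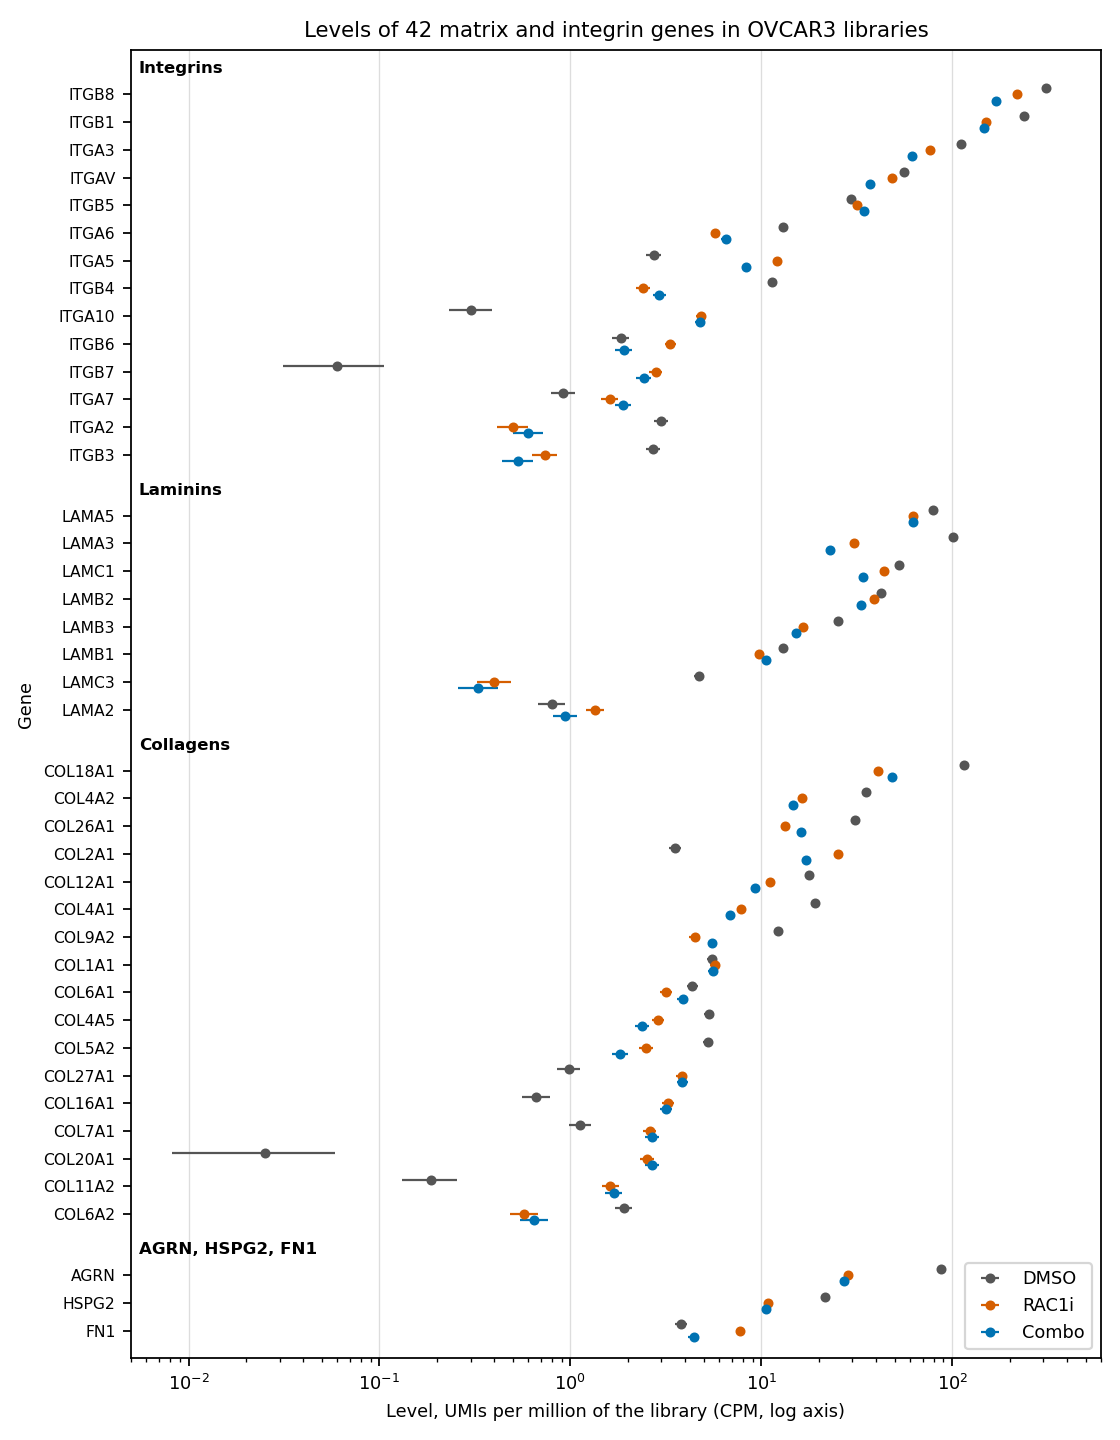
Levels of 42 of the 43 genes that reached a mean of 1 CPM, in CPM on a log axis, with 1 point per library (DMSO grey, RAC1i orange, Combo blue) and bars for the exact 95% counting interval. ITGB8 and ITGB1 lie highest in all 3 libraries, and the DMSO points of COL20A1, ITGB7, COL11A2 and ITGA10 lie more than 8-fold left of the treated ones.

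Among the integrins, the chains with the highest levels were lower in the treated libraries by less than 2-fold, and the 2-fold differences were in chains of lower level. ITGB8 (chr7:20330702-20415754, plus strand), the partner of ITGAV that binds latent TGF-β, was at 309 CPM in DMSO, 219 in RAC1i and 170.4 in Combo. ITGB1 (chr10:32887273-33005792, minus strand), the beta chain shared by most laminin and collagen receptors, was at 237, 150.0 and 147 CPM. ITGA3 (chr17:50055968-50090481, plus strand), which pairs with ITGB1 to bind laminins, was at 111, 76.9 and 61.9 CPM. All 3 were lower in both treated libraries, by 1.41-fold, 1.58-fold and 1.44-fold in RAC1i and by 1.81-fold, 1.61-fold and 1.79-fold in Combo. These 3 genes made up most of the summed integrin level, which was 781 CPM in DMSO, 563 in RAC1i and 483 in Combo. ITGAV, an alpha chain of receptors for RGD motifs, was at 56.2, 48.7 and 36.9 CPM, and its direction in RAC1i changed to a log2 ratio of 0.09 when every cell was given the same weight. ITGB5, a partner of ITGAV that binds vitronectin, went the other way, at 29.5, 31.9 and 34.7 CPM.

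The receptor of hemidesmosomes, the alpha-6 beta-4 integrin, was among the lower genes. ITGB4 (chr17:75721328-75757818, plus strand) was at 11.4 CPM in DMSO, 2.4 in RAC1i and 2.92 in Combo, or 4.73-fold (interval of the ratio 0.193 to 0.232) and 3.89-fold lower. Its partner ITGA6 was at 13, 5.75 and 6.5 CPM, and its Combo ratio of 0.499 had an interval from 0.467 to 0.533 that holds 0.5. After each cell was thinned to 5000 UMIs, a UMI of both chains was held by 28 of the 6725 cells in DMSO (0.416%, interval 0.277 to 0.601), by 4 of 9200 in RAC1i (0.0435%, 0.0119 to 0.111) and by 2 of 7354 in Combo (0.0272%, 0.0033 to 0.0982), or by 8.92%, 0.91% and 1.36% of cells without thinning. The product of the thinned shares of the single chains was 0.31%, 0.0397% and 0.0431%, within each interval. The joint share thus mostly restates the levels of the single chains. ITGA2, the alpha chain of the collagen receptor alpha-2 beta-1, was lower as well, at 2.98, 0.498 and 0.602 CPM, a 5.98-fold and 4.95-fold difference. ITGB3, which pairs with ITGAV in the vitronectin receptor, was at 2.71, 0.736 and 0.531 CPM.

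Integrins at least 2-fold higher in RAC1i were ITGA5, ITGA10 and ITGB7. ITGA5 (chr12:54395261-54419266, minus strand), which with ITGB1 forms the classical fibronectin receptor, was at 2.73 CPM in DMSO, 12 in RAC1i and 8.34 in Combo, or 4.41-fold (4.02 to 4.84) and 3.06-fold (2.78 to 3.37) higher. The share of thinned cells with a UMI of both ITGA5 and ITGB1 was 0.996% in DMSO (67 cells), 2.96% in RAC1i (272 cells) and 2.24% in Combo (165 cells), while the share with both ITGA3 and ITGB1 was 25%, 15.1% and 13%. Without thinning these shares were 6.55%, 18.1% and 15% for ITGA5 and 66.2%, 58.9% and 58% for ITGA3. The product of the thinned shares of the single chains was 0.889%, 3.05% and 2.39% for ITGA5 with ITGB1. For ITGA3 with ITGB1 it was 22.2%, 14.9% and 12.8%. The joint shares thus mostly restate the levels of the single chains. The ratio of ITGA5 to ITGB1 UMIs was thus 0.0115 in DMSO, 0.0802 in RAC1i and 0.0568 in Combo, and that of ITGA3 to ITGB1 was 0.468, 0.513 and 0.422, above DMSO in RAC1i and below it in Combo.

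ITGA10, a collagen-binding alpha chain best known from cartilage, was at 0.301, 4.81 and 4.76 CPM, or 16-fold (12.3 to 21.1) and 15.8-fold higher. ITGB7, a beta chain of lymphocyte homing receptors, gave 12 UMIs in all of DMSO, 656 in RAC1i and 514 in Combo, which are 0.0603, 2.79 and 2.42 CPM. In thinned cells the share with an ITGB7 UMI was 0.0149% (DMSO), 1.63% (RAC1i) and 1.43% (Combo), and without thinning 0.159%, 5.89% and 5.72%. In both genes the DMSO level was far under that of the treated libraries and their counting intervals did not meet, but the treated levels stayed under 5 CPM. Thinning to 5000 UMIs, which left a UMI in 4 DMSO cells for ITGA10 and in 1 for ITGB7, moved the RAC1i log2 ratio of ITGA10 from 4 to 5.44 and that of ITGB7 from 5.53 to 6.78, so the size of these ratios is uncertain. ITGA7, a laminin-binding alpha chain of muscle, was at 0.919, 1.61 and 1.89 CPM and passed 2-fold in Combo (2.06, interval 1.72 to 2.46). In cells with 10000 to 40000 UMIs its Combo log2 ratio was 0.94 in place of 1.04, under 2-fold. ITGB6, the epithelial partner of ITGAV, was at 1.84, 3.35 and 1.9 CPM, so RAC1i stood apart from both other libraries.

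Of the 9 laminin chains compared, LAMA3 and LAMC3 were at least 2-fold lower in both treated libraries (22.2%, under the share of all genes), 7 were within 2-fold and none was at least 2-fold higher. LAMA3 (chr18:23689453-23956222, plus strand), the alpha chain of laminin-332, which anchors epithelia to the basement membrane, was at 101 CPM in DMSO (interval 100.1 to 103), 30.7 in RAC1i (30 to 31.5) and 23 in Combo (22.4 to 23.7). The 3 intervals did not meet, and the level was 3.3-fold and 4.41-fold lower than in DMSO. LAMB3, its beta chain partner in laminin-332, was lower by less, at 25.3, 16.6 and 15.1 CPM. The LAMA3 UMIs per LAMB3 UMI were 4.01, 1.86 and 1.52 in the same order.

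The promoters of LAMA3 and LAMB3 are shown because both hold letters that match the motif of AP-1, the JUN and FOS dimer that acts on many epithelial and matrix genes. They are the 250 bases before a transcription start from RefSeq on GRCh38.p14, in lower case with each match to TGANTCA in capitals, a motif that reads the same on both strands. The LAMA3 stretch, before an internal start that lies well inside the gene span given above, is chr18:23872770-23873019 on the plus strand, with matches starting 125 and 69 bases before the start. The LAMB3 stretch, before 1 of its listed starts, is chr1:209651375-209651624 on the minus strand, with a match starting 67 bases before the start.
LAMA3: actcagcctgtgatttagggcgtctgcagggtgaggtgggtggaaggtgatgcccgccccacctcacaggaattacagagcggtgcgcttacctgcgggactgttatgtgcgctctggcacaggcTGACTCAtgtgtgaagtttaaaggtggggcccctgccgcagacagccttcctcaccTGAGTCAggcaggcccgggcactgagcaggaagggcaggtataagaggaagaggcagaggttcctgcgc
LAMB3: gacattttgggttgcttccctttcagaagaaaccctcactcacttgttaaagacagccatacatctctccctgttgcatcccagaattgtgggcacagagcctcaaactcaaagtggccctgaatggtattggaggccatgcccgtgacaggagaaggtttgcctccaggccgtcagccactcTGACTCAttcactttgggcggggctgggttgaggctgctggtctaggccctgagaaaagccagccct
The motif was in 6.57% of 35116 such windows of all genes. It was in 3 of the 77 windows found for 58 of the 81 genes (3.9%, a lower share). The third was that of COL10A1, which had at most 7 UMIs in a library. The motifs TATAAA and GGAATG, also sought, were in 13% and 9.09% of the 77 windows and in 10.7% and 11.9% of all windows. Counts per gene do not show which start was in use. A match is a stretch of letters and not a measured binding site.

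Laminin chains of the ubiquitous laminin-511 and laminin-521 differed less between libraries. LAMA5, their alpha chain, was at 79.4, 62.2 and 62.5 CPM, LAMC1, their gamma chain, at 52.3, 43.9 and 34.1 CPM, and LAMB2, the beta chain of laminin-521, at 42.3, 38.9 and 33.3 CPM. LAMB1, the beta chain of laminin-511, was at 13, 9.72 and 10.6 CPM. The direction of LAMA5, LAMB1 and LAMB2 against DMSO depended on the weighting, since with every cell given the same weight their log2 ratios in Combo were 0.13, 0.06 and 0.14. With LAMA3 lower, LAMA5 had the highest laminin level in both treated libraries, 29.7% of all laminin UMIs in RAC1i and 34% in Combo, where LAMA3 had been highest in DMSO with 31%.

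The LAMC3 gamma chain differed most among the laminins compared, with 941, 94 and 70 UMIs in DMSO, RAC1i and Combo (4.73, 0.4 and 0.329 CPM), or 11.8-fold and 14.4-fold lower. With every cell given the same weight its log2 ratios were -2.80 and -2.92 in place of -3.56 and -3.84. LAMA1, the alpha chain of embryonic laminin, fell just under the minimum of 1 CPM and was singled out after its values were seen. It had 379 UMIs in DMSO, 42 in RAC1i and 28 in Combo, 10.7-fold and 14.5-fold lower. LAMA2, the alpha chain of muscle laminin, was at 0.799, 1.35 and 0.94 CPM, a log2 ratio to DMSO of 0.75 and 0.23 that thinning to 5000 UMIs, which left its UMIs in 17 DMSO cells, moved to 1.53 and 0.95, past 2-fold in RAC1i.

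**Figure D2:**
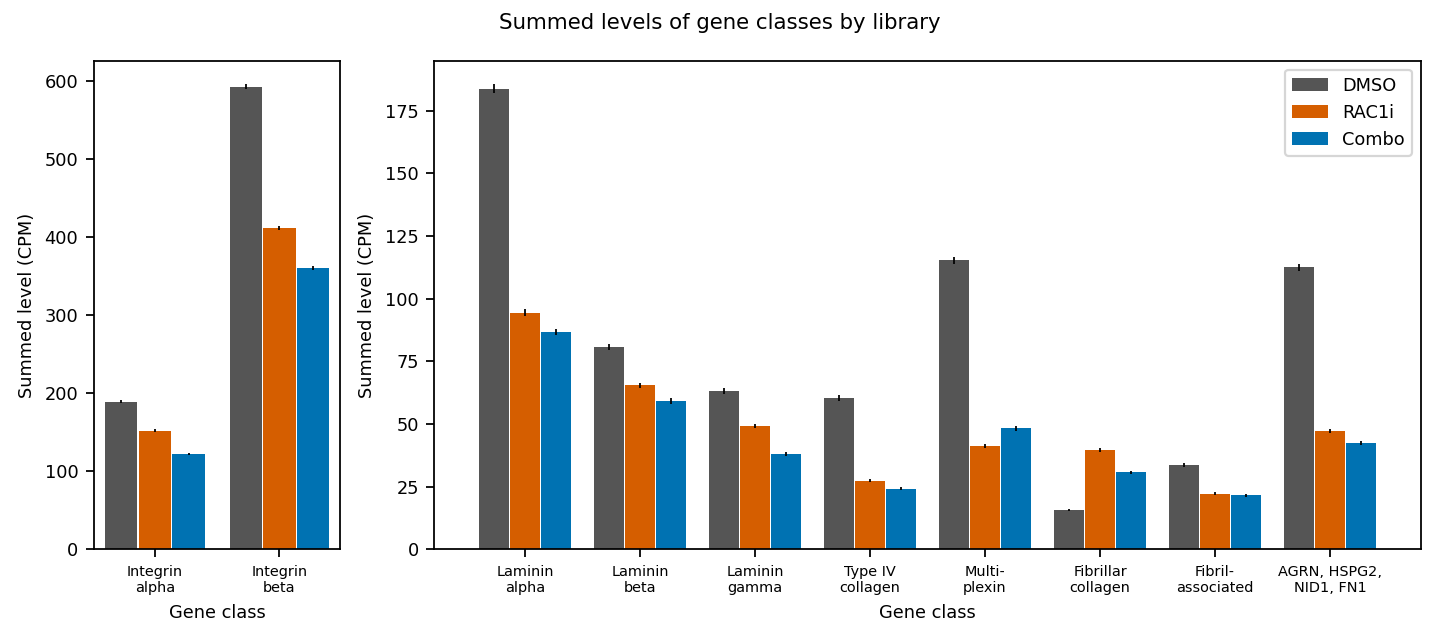
Summed levels in CPM of the genes of each class, integrins on the left with their own axis and the other classes on the right, with 1 bar per library and exact 95% counting intervals. In these sums, where deeper cells weigh more, each class drawn was lower in RAC1i and Combo than in DMSO except the fibrillar collagens, which were at 15.6, 39.5 and 30.7 CPM.

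Collagens of the basement membrane network were lower in sum, and those of fibrils were higher in sum through 1 gene. The 6 type IV chains, which form the network of basement membranes, summed to 60.4 CPM in DMSO, 27.3 in RAC1i and 24.3 in Combo, a ratio of 0.452 (0.439 to 0.466) and 0.402 (0.389 to 0.415). The 11 fibrillar chains summed to 15.6, 39.5 and 30.7 CPM, a ratio of 2.52 (2.42 to 2.63) and 1.96 (1.88 to 2.05). COL2A1 alone made up 63.6% of the fibrillar UMIs in RAC1i and 56.1% in Combo, and without it the other 10 chains summed to 12.1, 14.4 and 13.5 CPM, a ratio of 1.18 (1.12 to 1.25) and 1.11 (1.05 to 1.17).

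COL4A2 was at 35.4, 16.4 and 14.7 CPM and COL4A1 at 19.1, 7.8 and 6.89 CPM, or 2.16-fold and 2.45-fold lower in RAC1i. Both chains join in 1 heterotrimer, and the UMIs of COL4A1 per UMI of COL4A2 were 0.539, 0.476 and 0.467 in the same order, so the pair was lower together. In thinned cells a UMI of both was found in 132 DMSO cells (1.96%), 43 RAC1i cells (0.467%) and 37 Combo cells (0.503%), and without thinning in 23.4%, 6.05% and 6.62% of cells. The product of the thinned shares of the single chains was 1.25%, 0.317% and 0.256%, below the joint share in each library. COL4A5, a chain of the kidney and epidermal networks, was at 5.31, 2.89 and 2.38 CPM, and its head-to-head neighbour COL4A6 was under 0.3 CPM in every library, with 56, 38 and 23 UMIs.

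COL4A1 and COL4A2 lie head to head on chromosome 13 and share the stretch between their RefSeq starts, which is shown because the pair moved together. It is the 126 bases of chr13:110307158-110307283, plus strand, GRCh38.p14, between the first base of COL4A1 (110307157, minus strand) and that of COL4A2 (110307284, plus strand), with the GGGCGG box bound by SP1 in capitals. GENCODE 44 places a start of COL4A2 at 110305812, so other transcripts of the pair overlap.
COL4A1-COL4A2: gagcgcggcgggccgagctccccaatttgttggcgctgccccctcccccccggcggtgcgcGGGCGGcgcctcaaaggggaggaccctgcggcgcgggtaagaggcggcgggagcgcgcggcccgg
The box, on either strand, was in 55.8% of the windows of these genes and in 42.6% of all windows. It is thus a common stretch of letters.

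COL18A1 (chr21:45405165-45513720, plus strand), the basement membrane collagen whose end is released as endostatin, had the highest collagen level in every library. It was at 115 CPM in DMSO, 41.0 in RAC1i and 48.3 in Combo, or 2.81-fold and 2.39-fold lower, and a UMI was found in 38.4%, 18.3% and 23.3% of thinned cells (72.7%, 50.5% and 60.7% without thinning). COL26A1 was at 31.1, 13.4 and 16.1 CPM. COL12A1, a fibril-associated collagen, was at 17.9, 11.1 and 9.28 CPM, and COL9A2, of the cartilage collagen IX, at 12.3, 4.47 and 5.55 CPM. For COL18A1, COL26A1 and COL9A2 the Combo library lay above RAC1i, and both lay under DMSO. In type VI, the beaded filaments, COL6A2 was at 1.91, 0.575 and 0.649 CPM and its partner COL6A1 at 4.36, 3.15 and 3.88 CPM.

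COL2A1 (chr12:47972967-48004554, minus strand), the main collagen of cartilage, gave 701 UMIs in DMSO, 5896 in RAC1i and 3660 in Combo, or 3.52, 25.1 and 17.2 CPM. The ratio to DMSO was 7.13 (6.59 to 7.72) in RAC1i and 4.88 (4.5 to 5.3) in Combo, and it was the only one of the 19 genes with a mean of at least 10 CPM that was at least 2-fold higher in either. A UMI was found in 1.76%, 11.5% and 8.81% of thinned cells (8.41%, 37% and 30.7% without thinning), and no DMSO cell held 5 or more COL2A1 UMIs while 67 RAC1i cells and 28 Combo cells did.

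Other collagens at least 2-fold higher were low in level in each library. COL27A1, a cartilage fibrillar collagen, was at 0.98, 3.84 and 3.86 CPM, and COL16A1, which is associated with fibrils, at 0.663, 3.26 and 3.18 CPM. COL7A1, the anchoring fibril that hemidesmosomes hold on to, was at 1.12, 2.61 and 2.68 CPM. COL11A2, a partner of type II collagen in cartilage, was at 0.186, 1.62 and 1.69 CPM. COL20A1 had the largest ratio of the 43 genes, with 5 UMIs in DMSO, 594 in RAC1i and 572 in Combo, a ratio of 101 (42.9 to 311) and 107 (45.6 to 331). COL5A2, a fibrillar chain, went the other way at 5.25, 2.49 and 1.82 CPM, and COL1A1, the main chain of type I collagen, was at 5.51, 5.69 and 5.58 CPM in the sum over cells, but with every cell given the same weight its log2 ratios to DMSO were 0.71 and 0.77. COL1A2, the other chain of type I collagen, gave 25, 5 and 5 UMIs in all. COL1A1 and COL1A2 were named after their values were seen.

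**Figure D3:**
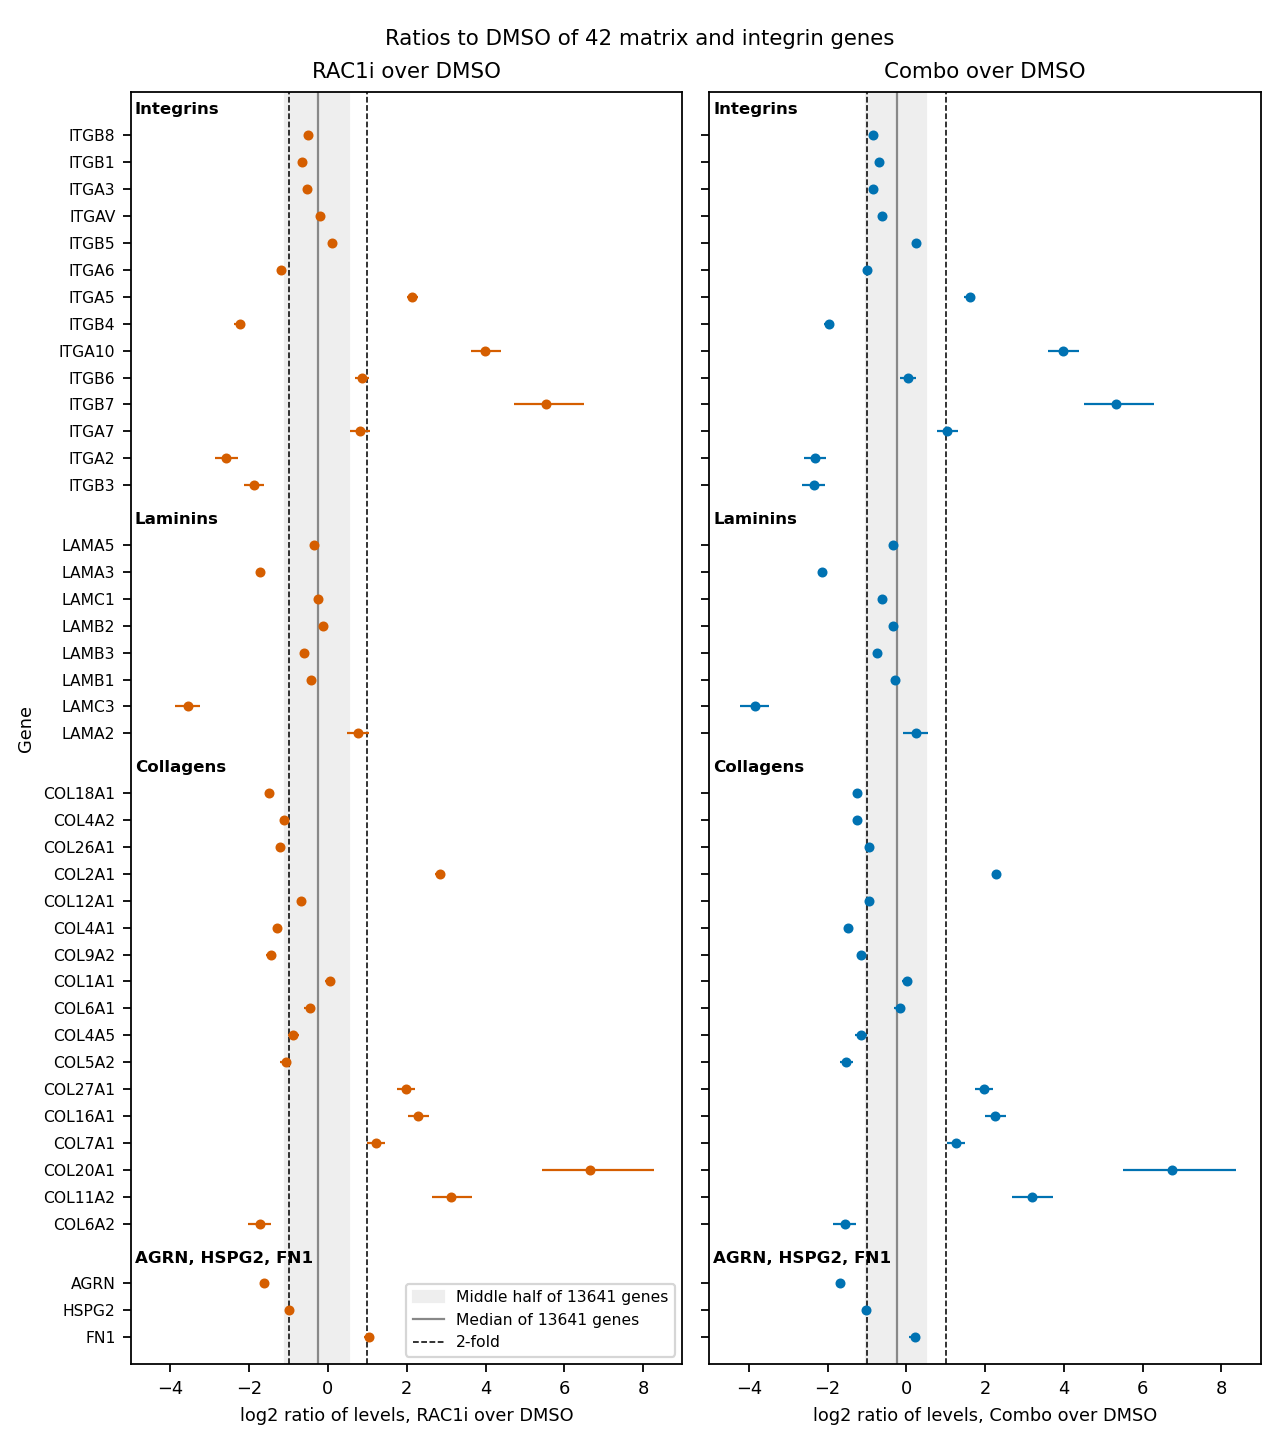
The log2 ratio to DMSO of each of 42 of the 43 genes, RAC1i on the left and Combo on the right, with bars for the exact 95% interval, dashed lines at 2-fold, the grey line at the median of all 13641 genes and the grey band over their middle 50%. Both panels share the DMSO library. Genes right of the upper dashed line are 3 or 4 integrins, 6 collagens and, in RAC1i only, FN1.

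AGRN, HSPG2, NID1 and FN1 differed from each other. AGRN (chr1:1020120-1056118, plus strand), a heparan sulfate proteoglycan of basement membranes that binds dystroglycan, was at 87.0 CPM in DMSO, 28.4 in RAC1i and 27.2 in Combo, or 3.07-fold (ratio 0.326, 0.317 to 0.335) and 3.2-fold lower. HSPG2, which encodes perlecan, was at 21.5, 10.8 and 10.6 CPM, with ratios of 0.504 (0.479 to 0.529) and 0.494 (0.469 to 0.52) that lie on either side of 0.5. NID1, the link between laminin and type IV collagen, was near the floor with 47, 46 and 54 UMIs.

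FN1, the fibronectin that ITGA5 and ITGB1 bind, was at 3.81 CPM in DMSO, 7.77 in RAC1i and 4.43 in Combo, with a ratio of 2.04 (1.87 to 2.22) in RAC1i and of 1.16 (1.06 to 1.28) in Combo. Scaled to a total without mitochondrial genes, its RAC1i log2 ratio was 0.96 in place of 1.03, under 2-fold. Its UMIs were held by few cells. The 100 cells with the most held 81.5% of the FN1 UMIs in DMSO, 53% in RAC1i and 56.3% in Combo, where the 100 cells with the most ITGB8 UMIs held at most 7.84% of that gene's. Cells with 5 or more FN1 UMIs numbered 33, 98 and 41, and without them the level was 1.44, 3.74 and 2.74 CPM. The variance over the mean across thinned cells was 2.31 for FN1 in RAC1i and 2.15 in Combo, and for the other genes with enough UMIs it was 0.972 to 1.62 over the 3 libraries, highest for ITGB8. Counting intervals are too narrow where this value is above 1.

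The share of cells in which a gene was seen was compared after each cell was thinned to 5000 UMIs, and the share without thinning is given beside it since the libraries differ in depth. A UMI of ITGB8 was in 67.5% (66.4 to 68.7), 58.1% and 48.1% of thinned cells, and in 82.7%, 83.3% and 78.8% without thinning. For ITGB1 the shares were 62.3%, 49.9% and 48.3% thinned, and 81.8%, 81.7% and 81.2% without. Both receptor chains were seen in most cells of every library without thinning, where ITGB8 in RAC1i was slightly above DMSO, and at equal depth the treated libraries lay lower for both. LAMA3 was seen in 32.2% (31.1 to 33.4), 12.1% (11.4 to 12.8) and 9.72% (9.06 to 10.4) of thinned cells and in 64.2%, 35.6% and 32% without thinning. AGRN was seen in 31.1%, 13% and 13.4% thinned, and in 69.1%, 40.3% and 43.5% without. For these matrix genes the share was lower in the treated libraries either way. ITGAV and ITGB8, the chains of the receptor that frees TGF-β, were seen together in 16.7% (15.8 to 17.6), 13% (12.3 to 13.7) and 8.89% (8.25 to 9.57) of thinned cells, and in 58.1%, 51% and 46.2% without thinning. All chains of laminin-521 were seen in 1.44%, 1.17% and 0.979% of thinned cells, with intervals that meet, and in 37.4%, 24.7% and 24% of cells without thinning. The product of the thinned shares of the single chains fell in the same order. It was 14.7%, 12.2% and 7.76% for ITGAV with ITGB8 and 1.08%, 0.863% and 0.7% for laminin-521.

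The place of the members' UMIs among the cells was read from thinned cells split by a list of 5 inflammatory genes (CXCL1, CXCL2, CXCL3, CXCL8 and IL6). Cells with at least 3 UMIs of the list, of which DMSO had 181, RAC1i 3492 and Combo 1752, were set beside cells with none of them (5842, 2594 and 3148). The 81 genes together had a ratio of 1.08, 1.07 and 1.1 between such cells, and the same split over all genes was not run, so no count of genes is read from it. FN1 was 14.4-fold higher in the inflammatory cells of DMSO (8.62 to 23.5), from 25 and 56 UMIs, 2.43-fold in RAC1i (1.81 to 3.31) and 2.83-fold in Combo (1.94 to 4.17). These FN1 intervals are too narrow, since before thinning 100 cells held 81.5% of its UMIs in DMSO. The ratio was 1.36 (1.035 to 1.757), 1.25 and 1.47 for ITGAV. For ITGA5 it was 1.72 in DMSO (0.457 to 4.59), 2.53 in RAC1i and 1.93 in Combo. ITGB7, with too few DMSO UMIs to compare, had 2.52 in RAC1i and 2.37 in Combo. COL6A1 in Combo went the other way (0.565, 0.333 to 0.923). FN1, ITGAV, ITGA5, ITGB7 and COL6A1 were named after their values were seen. A like split by mitotic genes gave the 81 genes a ratio of 0.879, 1.025 and 0.976. These cells share a culture, so the intervals compare cells of 1 library and not conditions.

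Shallow cells behaved differently in DMSO. In cells with under 10000 UMIs, which were 22% of DMSO cells but held 4.5% of their UMIs, the 81 genes summed to 606 CPM in DMSO, 1216 in RAC1i and 1270.0 in Combo. In the 3 deeper strata they summed to 1461 to 1536, 954 to 969 and 816 to 909 CPM in that order. The shallow DMSO cells had a median mitochondrial share of 0.903%, against 5.41% to 7.45% in deeper DMSO cells, while in RAC1i and Combo the shallow cells had the highest share (3.95% and 4.85%). All 14 genes at least 2-fold lower in RAC1i were at least 2-fold lower in each of the 3 deeper strata, but in the shallow stratum only 4 of them were below DMSO. In Combo, 4 of the 15 lower genes were below DMSO in the shallow stratum and 1 was at least 2-fold lower. All 15 were below DMSO in each deeper stratum, and 10 of them were at least 2-fold lower in cells of 10000 to 20000 UMIs and 15 in the deeper ones. All 10 genes at least 2-fold higher in RAC1i were above DMSO in every stratum. In the shallow stratum, however, the 81 genes together were at 2.01 times their DMSO level, so lying above DMSO there is not particular to the 10. The deeper strata hold most of the UMIs behind the calls and are no separate check. Shares over all genes by stratum are not given. With every cell given the same weight, so that shallow cells count fully, 7 of the 14 stayed at least 2-fold lower (LAMA3, LAMC3, ITGB4, ITGA2, ITGB3, COL4A1 and COL9A2), while AGRN was at a log2 ratio of -0.91 in place of -1.62, COL18A1 at -0.98 in place of -1.49, and COL4A2, COL26A1, COL5A2, COL6A2 and ITGA6 at -0.96 to -0.73. Fewer cells of a state and less RNA per cell cannot be told apart in a sum, and what the shallow cells are was not tested.

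**Figure D4:**
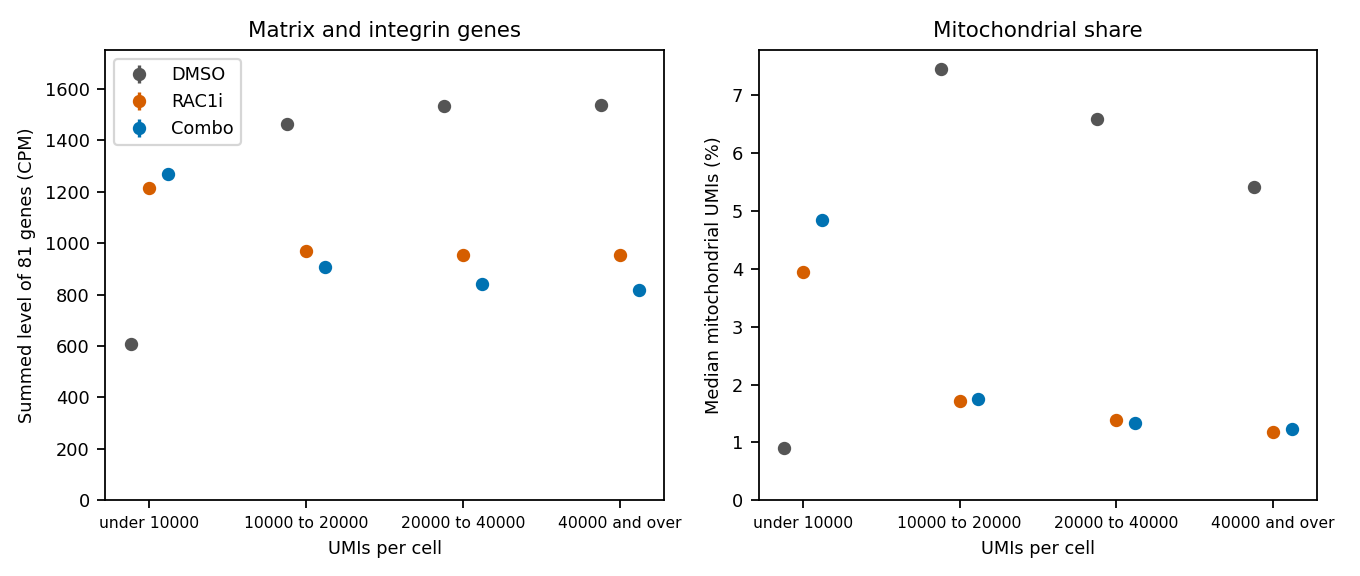
Left, the summed level of the 81 genes in CPM by the number of UMIs in a cell, with 1 point per library and exact 95% counting intervals, which are smaller than the points. Right, the median mitochondrial share of the same cells. In cells under 10000 UMIs the DMSO point is the lowest in both panels (606 CPM and 0.903%), and in the deeper cells it is the highest.

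Of the 10 genes at least 2-fold higher in RAC1i, 5 begin within 5 kb after the end of a gene on the same strand with a mean of at least 1 CPM, a property looked at after the values were seen. The distance is 1088 bases from RXRB to COL11A2, 3284 from RARG to ITGB7, 3395 from ARFGAP1 to COL20A1 and 3672 from UQCRC1 to COL7A1. None of the 14 lower genes and none of the 19 others has such a neighbour, and over all genes tested the share was 18.8% of those higher, 12.5% of those lower and 13.6% of the rest. RXRB was at 6.85, 9.16 and 10.1, and RARG at 18.2, 32.7 and 29.5, higher in the treated libraries as their neighbours were. ARFGAP1 was at 18.7, 10.5 and 12.3 CPM and UQCRC1 at 331, 150 and 161, lower in the treated libraries where COL20A1 and COL7A1 were higher. Each upstream gene named here was above its neighbour in every library. The part of transcripts that run on from the upstream gene was not tested.

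The 38 genes under the minimum stayed at or under 2.08 CPM in every library. COL23A1, a transmembrane collagen, was closest to the minimum, at 2.08, 0.477 and 0.442 CPM, and COL9A3 and LAMA1 came next among those lower in both treated libraries. Chains with a handful of DMSO UMIs and more in both treated libraries included COL5A3 (1, 133 and 86 UMIs, a RAC1i ratio of 113 with an interval from 19.9 to 4484), LAMB4 (1, 39 and 30) and COL15A1 (0, 15 and 15). COL3A1, the collagen of stroma, gave 4 UMIs in RAC1i and none in the other libraries, and COL22A1 2 UMIs in Combo alone. The genes under the minimum other than NID1 and COL4A6 were named after their values were seen.

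The genes that work with the integrins were read against all genes tested, of which 27.6% were at least 2-fold lower and 15.5% higher in RAC1i, and 25.9% and 14.3% in Combo. Of 28 focal adhesion genes compared (of 30 listed), 7 were at least 2-fold lower in RAC1i (25%, near the share of all genes) and 1 higher (3.57%), and in Combo 9 were lower (32.1%) and 0 higher, with a median log2 ratio of -0.42 and -0.41. In this list and those that follow, the highest and lowest ratios are those of genes with a mean of at least 10 CPM unless the text gives another, and genes of lower level were named after their values were seen. KANK1, which ties talin to the cell cortex, was lowest against DMSO at 25.4, 3.61 and 3.4 CPM. CRK, an adaptor of integrin signalling upstream of RAC1, was the higher one at 48.0, 102 and 83.2 CPM, and it had the lowest Combo ratio to RAC1i (0.813) at that level, while TNS2, a tensin, had a lower one (0.753) at 2.81, 2.1 and 1.58 CPM. GIT1, which brings PIX to adhesions, had the highest, at 22.8, 17.1 and 22.9 CPM.

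Other matrix receptors (18 compared) were at least 2-fold lower for 5 genes (27.8%, near the share of all genes) and higher for 2 (11.1%) in RAC1i, and for 6 (33.3%) and 2 in Combo, with medians of -0.48 and -0.44. The largest differences were in genes of low level, SDC3, a syndecan, at 6.63, 0.66 and 0.639 CPM and DDR2, a collagen receptor kinase, at 0.231, 6.11 and 5.42 CPM. At 10 CPM or more, CD47, the thrombospondin receptor and anti-phagocytic signal, was lowest at 1327, 573 and 498 CPM, and PLAUR, the urokinase receptor, highest at 8.37, 33.7 and 31.6 CPM. Between RAC1i and Combo, SDC2, also a syndecan, was lowest in ratio at that level at 42.9, 50.9 and 42.3 CPM and CD81, a tetraspanin that associates with integrins, highest at 260, 152 and 182 CPM. Of lower level, CD44, the hyaluronan receptor, had a ratio of 0.782 and GPC1, a glypican, one of 1.51. Among hemidesmosome genes, KRT5 and KRT14 were under 0.1 CPM in every library. The 3 compared had medians of -0.94 and -0.84, with none past 2-fold in RAC1i and 1 in Combo. That 1 was PLEC, the plectin that links ITGB4 to keratin, at 45.2, 23.2 and 21.7 CPM, while CD151, a tetraspanin partner of laminin-binding integrins, was at 114, 99.8 and 117 CPM.

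Genes that make collagen (23 compared of 29) were at least 2-fold lower for 8 (34.8%) and higher for 1 (4.35%) in each treated library, with medians of -0.56 and -0.36. PLOD2, which hydroxylates collagen lysines for crosslinks, was at 26.1, 2.97 and 3.12 CPM, and BMP1, which cuts fibrillar procollagens, at 6.53, 18.3 and 15.9 CPM. At 10 CPM or more, BMP1 also had the lowest Combo ratio to RAC1i (0.869), and MIA2, which helps export procollagen, the highest (1.29) at 18.2, 5.24 and 6.73 CPM. The prolyl hydroxylases P3H2 (0.821) and P4HA2 (1.35), of lower level, lay beyond them. Genes that break matrix down (14 compared of 26) were lower for 2 (14.3%) and higher for 1 (7.14%) in RAC1i, and for 4 (28.6%) and 1 in Combo, with medians of -0.62 and -0.58. The higher one was MMP14, a membrane metalloproteinase that cuts collagen, at 0.176, 3.32 and 2.66 CPM. TIMP3, an inhibitor of metalloproteinases that is held in the matrix, was at 30.7, 6.24 and 5.13 CPM, and ADAM17, the sheddase of TNF, had the highest ratio of the genes at 10 CPM or more, at 41.5, 63.1 and 56.4 CPM. Among these, Combo over RAC1i was lowest for PLAU, urokinase, at 22.8, 16.2 and 13.3 CPM and highest for CTSL, cathepsin L, at 19.2, 12.3 and 15.7 CPM, and of lower level MMP14 (0.804) and MMP9 (1.5), a gelatinase, lay beyond them.

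Other matrix proteins (17 compared of 27) were lower for 5 (29.4%, near the share of all genes) and higher for 2 (11.8%) in RAC1i, and for 6 (35.3%) and 3 (17.6%) in Combo, with medians of -0.38 and -0.34. THBS1, thrombospondin-1, a ligand of CD47, was at 4.62, 38.3 and 23.2 CPM, the highest ratio to DMSO and the lowest of Combo to RAC1i (0.607). At 10 CPM or more FBN2, a fibrillin, was lowest against DMSO at 45.1, 13 and 8.73 CPM, and LTBP1, which holds latent TGF-β in the matrix, had a lower ratio, at a mean under 10 CPM, with 19.1, 3.26 and 2.85 CPM. LGALS3, a lectin of matrix glycoproteins, had the highest Combo ratio to RAC1i at 287, 116 and 140 CPM. The medians of the 6 lists all lay below those of all genes tested (-0.26 and -0.23), which is a description of these libraries and no test.

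Combo and RAC1i, which differ by the EZH2 inhibitor, were close. None of the 43 genes was 2-fold higher or lower in Combo over RAC1i, where 0.0586% of all genes were higher and 0.0953% lower, and the median log2 ratio was -0.06 beside 0.02 for all genes. The counting interval lay below 1 for 22 genes, above 1 for 9 and on both sides for 12, or 51.2% below and 20.9% above against 31.4% and 36.3% of all genes, which compares 2 libraries and not replicated conditions. The summed level was 14.2% lower in Combo for integrins and 12.1% lower for laminins, and 1.32% lower for collagens, where the interval of the ratio (0.972 to 1.002) reached 1.

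The lowest ratios were those of ITGB6 (0.568, 0.502 to 0.641) and FN1 (0.57, 0.526 to 0.617), both higher in RAC1i than in DMSO. In Combo, ITGB6 was near its DMSO level, and the FN1 log2 ratio to DMSO was 0.22 in the sum but 0.82 after thinning to 5000 UMIs. COL2A1 (0.686) and ITGA5 (0.694), higher in RAC1i as well, kept a Combo level above DMSO. LAMA3 (0.748) and ITGB8 (0.779), lower in RAC1i than in DMSO, were lower again in Combo. ITGAV (0.759) and LAMC1 (0.776) were lower in Combo than in RAC1i too, while with every cell given the same weight their RAC1i log2 ratios to DMSO were 0.09 and -0.01. The highest ratios were COL9A2 (1.24), COL6A1 (1.23), ITGB4 (1.22), ITGA2 (1.21, with an interval that holds 1) and COL26A1 (1.21), all genes lower in RAC1i than in DMSO. ITGA10, COL20A1, COL27A1, COL16A1, COL7A1 and COL11A2 had ratios of 0.976 to 1.06 with intervals that hold 1. Combo over RAC1i and RAC1i over DMSO share the RAC1i library and are not independent. Error in that library alone would move a gene in opposite directions in them, so the opposite directions named above are no separate result.

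**Figure D5:**
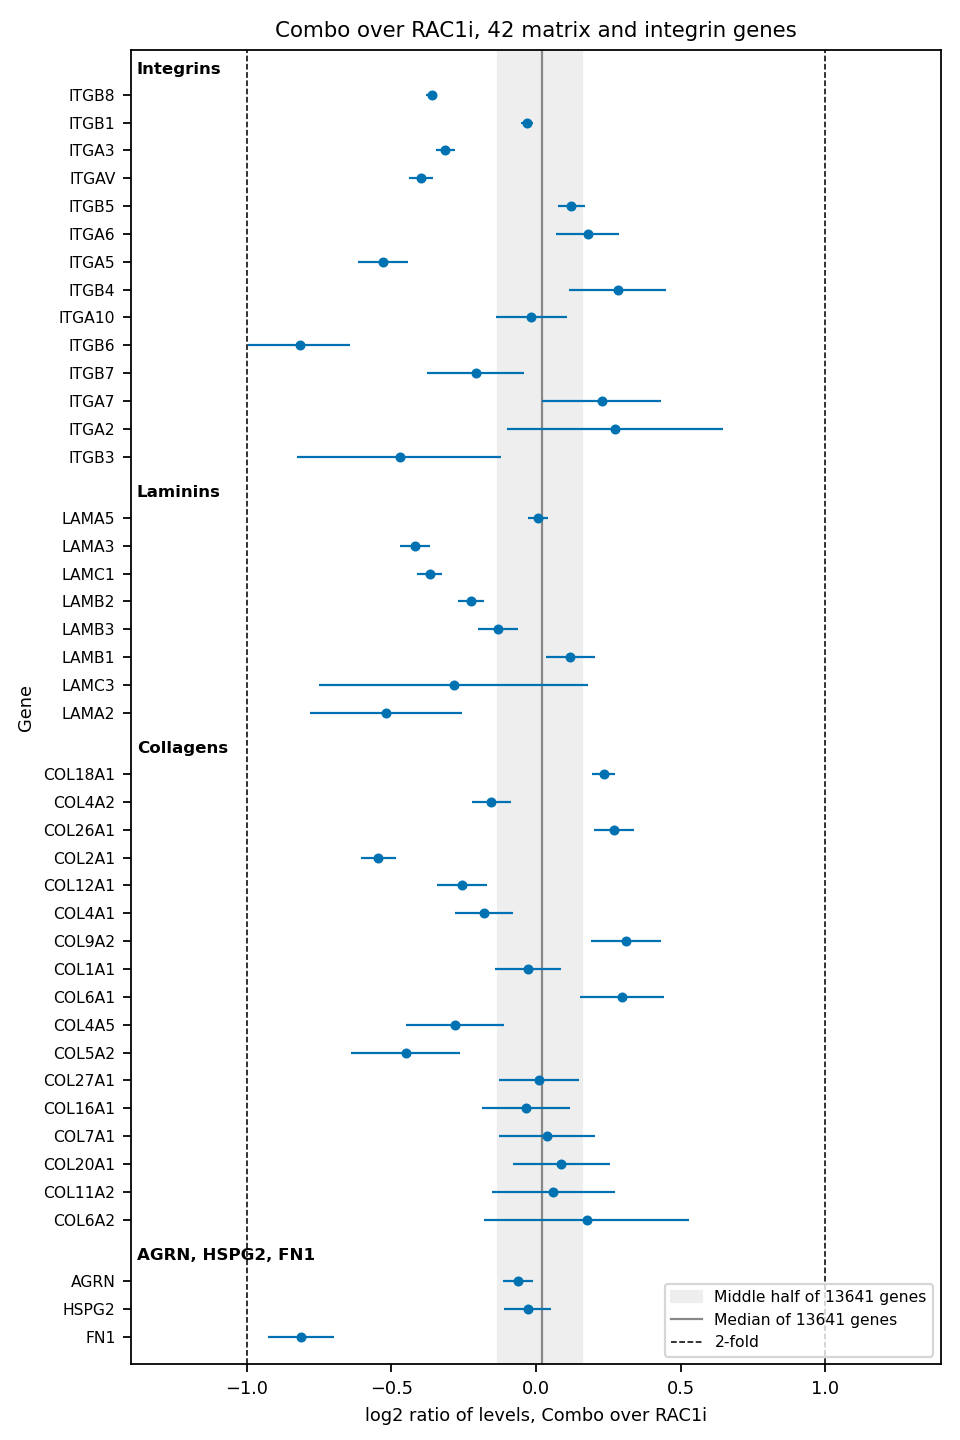
The log2 ratio of Combo over RAC1i for 42 of the 43 genes, with exact 95% intervals, dashed lines at 2-fold, and the median (line) and middle 50% (band) of all 13641 genes in grey. No gene reaches a dashed line, and ITGB6 and FN1 lie farthest left.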

How the data were processed

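The OVCAR3 libraries used were those of DMSO, RAC1i and Combo, and each condition had 1. Per the labels, the authors used a 10X Genomics 3′ kit and Cell Ranger 4.0.0 on GRCh38, and the deposited values are raw UMI counts per gene and barcode, with no normalization. The deposited tables of barcodes and gene names (unit other) gave cell and gene identities. A library treated with EZH2i alone was not analysed here. Values of 1 laminin chain and of 1 neighbouring gene are not reported here.

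A cell was kept if it had more than 1000 genes, a mitochondrial share of at most 20% and a complexity (log10 genes over log10 UMIs) over 0.8, as in the study's methods. No doublet calling was run. Kept barcodes shared by pairs of libraries numbered 15 to 23. UMIs were summed over kept cells and scaled to 1000000 (CPM), and genes with a mean of at least 1 CPM were compared. Intervals are exact at 95% (Poisson for a level, conditional for a ratio, Clopper-Pearson for a share) and cover counting error only, so depth limits precision and culture variation is not measured. With 1 library per condition no test was possible. For shares of cells, cells were thinned at random to 5000 UMIs, which left out 806, 1015 and 885 shallower cells. No cell type lacking these genes was present, so the share that free RNA gives was not measured.

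Every gene with a mean of at least 10 CPM, AGRN, HSPG2, NID1, FN1, every gene at least 2-fold different, partner chains, and in each list the genes with the highest and lowest ratio among those with a mean of at least 10 CPM were named, with exceptions marked. The genes, lists and splits were chosen with earlier results of these data known. Gene positions are from GENCODE 44 and promoters from RefSeq. Calculations used Python 3.11.15 and R 4.3.3, with scaling factors from edgeR 4.0.16 and DESeq2 1.42.0, and were tested on simulated data. Alternatives covered the limits on cells, scaling, weighting of cells, thinning, minimum level and fold.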

Additional observations from a re-analysis of the deposited data

How the results depend on the processing

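Among the 43 genes compared, no ratio that was itself at least 2-fold changed sign under any alternative, and the genes of the pathway lists were not recomputed. Smaller ratios did, such as Combo over RAC1i of ITGA2 (log2 0.27, or -0.21 in cells with 10000 to 40000 UMIs) and LAMC3 (-0.28, or 0.49 thinned to 5000 UMIs). Cells under 10000 UMIs taken alone were not among these alternatives. In them only 4 of the 14 genes lower in RAC1i and 4 of the 15 lower in Combo were below DMSO. Of the 66 counts recomputed, 51 stayed within 1.5 times. Other kinds of value were less stable. Of the ratios of summed levels, 66 were marked as moved and 30 as the same. For ratios of single genes these numbers were 316 and 764, and for shares of cells 260 and 10. In RAC1i over DMSO, genes at least 2-fold higher numbered 1 with a minimum mean of 10 CPM and 21 with no minimum, and genes lower numbered 6 and 26, or 7 with each cell weighted alike (mean over cells of CPM). In Combo over DMSO the higher genes numbered 1 and 19 with those minima, and the lower ones 6 and 27, 7 with each cell weighted alike and 24 at 1.5-fold. In Combo over RAC1i, 1 gene was higher with no minimum, and 1 was lower after thinning to 5000 UMIs, 4 with no minimum and 2 at 1.5-fold. The shares over all genes at these settings are not given, so these counts show only how the calls depend on the setting. Weighting cells alike gives the shallow cells 22% of the weight in DMSO in place of the 4.5% they have in the sum, and moved the RAC1i log2 ratio of AGRN from -1.62 to -0.91 and of COL18A1 from -1.49 to -0.98. In Combo over DMSO the same weighting gave -0.83 for AGRN (from -1.68), -0.64 for COL18A1 (-1.26), -0.65 for COL6A2 (-1.56), -0.41 for HSPG2 (-1.02), 2.30 for ITGA5 (1.61) and 2.06 for COL7A1 (1.26), while COL20A1 ranged over alternatives from 5.83 to 7.15 in RAC1i and from 5.88 to 7.66 in Combo. Equal weights also gave ITGB3 -1.18 in RAC1i (from -1.88) and -1.76 in Combo (-2.35), and ITGB4 -1.36 in Combo (-1.96). ITGA7 passed 2-fold in RAC1i after thinning (1.03). No paired analysis was possible because each condition is 1 library, and no replicate could be left out. Levels under about 1 CPM rest on few UMIs, and differences between cultures cannot be told apart from those between treatments.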

Other observations

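Integrin chains whose symbols the choice left out were read after the other values were seen. ITGAE, the only known alpha partner of ITGB7 besides ITGA4, was at 49.4 CPM in DMSO, 76.7 in RAC1i and 74.2 in Combo, a ratio of 1.55 and 1.5. ITGA4 gave 26, 15 and 19 UMIs. ITGAM, the alpha chain of the macrophage receptor Mac-1, gave 0 UMIs in DMSO, 386 in RAC1i and 378 in Combo, while its partner ITGB2 gave 149, 201 and 191. ITGAL gave 5, 68 and 62 UMIs, and ITGAD 0, 2 and 4. ITGA2B, the alpha chain of the platelet fibrinogen receptor, went the other way with 183, 95 and 80 UMIs, a ratio of 0.44 and 0.409. NID2, the second nidogen, was at 6.67, 3.12 and 2.37 CPM and thus above NID1 in every library. DDR1, an epithelial receptor kinase for collagen, was at 24.4, 23.8 and 24.2 CPM.

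The targets themselves were read as well. RAC1 was at 462, 589.7 and 577 CPM and EZH2 at 32.1, 12.4 and 15.2 CPM. Both inhibitors act on proteins, so these levels do not check the treatment.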
